A study of Homo sapiens with 12 samples.

Results

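E-cadherin (CDH1), 2 related cadherins (CDH2 and CDH3), 5 transcription factors linked to CDH1 repression (SNAI1, SNAI2, ZEB1, ZEB2 and TWIST1) and the mesenchymal filament gene vimentin (VIM) were followed in PANC-1 cells whose E47 was switched on with tamoxifen. Every probe annotated to 1 of these 9 genes was taken, which gave 12 of the 47323 probes on the array and 9 of its 20046 annotated genes. SNAI2, ZEB2 and VIM had 2 probes each and the other genes 1. PANC-1 is a cell line derived from a human carcinoma of the pancreatic duct, and all groups carried the tamoxifen-inducible form of the basic helix-loop-helix protein E47. The groups were cells given 4 µM tamoxifen for 48 h, cells given 1 µM tamoxifen for 48 h and untreated cells, with 4 arrays each. The treatment notes write the lower dose with a unit of volume, and the sample titles give it as 1 µM. Cells that received tamoxifen without carrying the inducible E47 were not analysed here, so an effect of tamoxifen itself cannot be told apart from one of E47. The labels name neither the vector nor whether the line is 1 clone, and they do not say whether replicates were separate cultures, so the p-values cover only the spread among these arrays, which may be technical.

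E-cadherin is the transmembrane protein that holds neighbouring epithelial cells together, through catenins that tie it to actin. Its gene is a textbook target of repressors that bind E-boxes, short DNA elements of the form CANNTG, in its promoter. The zinc finger proteins SNAIL (SNAI1), SLUG (SNAI2), ZEB1 and ZEB2 and the helix-loop-helix protein E47, a product of TCF3, are known to act there directly. In epithelial to mesenchymal transition, loss of E-cadherin is commonly accompanied by gain of N-cadherin (CDH2) and vimentin.

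The values are linear intensities that the authors had quantile-normalized between arrays, so each array had nearly the same distribution (median 119.9 to 120) and a common shift of all genes is not visible. An intensity over 123.6 counted as above background, and the 24311 probes above background on 4 or more of the 12 arrays were tested. Fold changes are on the log2 scale after background correction with an offset of 50 and come from limma, with Benjamini-Hochberg adjustment over those 24311 probes and a threshold of 0.05. The TCF3 probe read 254.8 to 330.1 at 4 µM and 376.7 to 532.4 at 1 µM, against 703.0 to 882.8 in untreated cells, and whether it reads the introduced transcript is not given in the sources used here. As to the labelled cell type, all 8 ductal markers with a probe were detected, and their summed intensity was 65445.2 to 78734.9 at 4 µM, 69865.3 to 81895.5 at 1 µM and 40643.3 to 49931.4 in untreated cells.

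Of the 12 probes, 9 from 7 genes were detected, and the probes of ZEB2 (2) and TWIST1 (1) were not. At 4 µM against untreated cells, 7 of the 9 detected probes were called, where 40.1% of all tested probes were called. They were 3 higher, with 19.8% of all tested probes called higher, and 4 lower, with 20.4% called lower. The arrays of the groups did not overlap for these 7, nor for 37.4% of all tested probes. At 1 µM against untreated cells the same 7 were called, with 38.0% of all tested probes. The 3 higher stood beside 18.2% called higher, the 4 lower beside 19.8% called lower, and non-overlap of the 7 beside 33.3%. The SNAI1 probe and 1 SNAI2 probe (ILMN_2082585) were detected through treated arrays only, so these counts are descriptions and not support. Both doses were set against the same 4 untreated arrays.

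**Figure D1:**
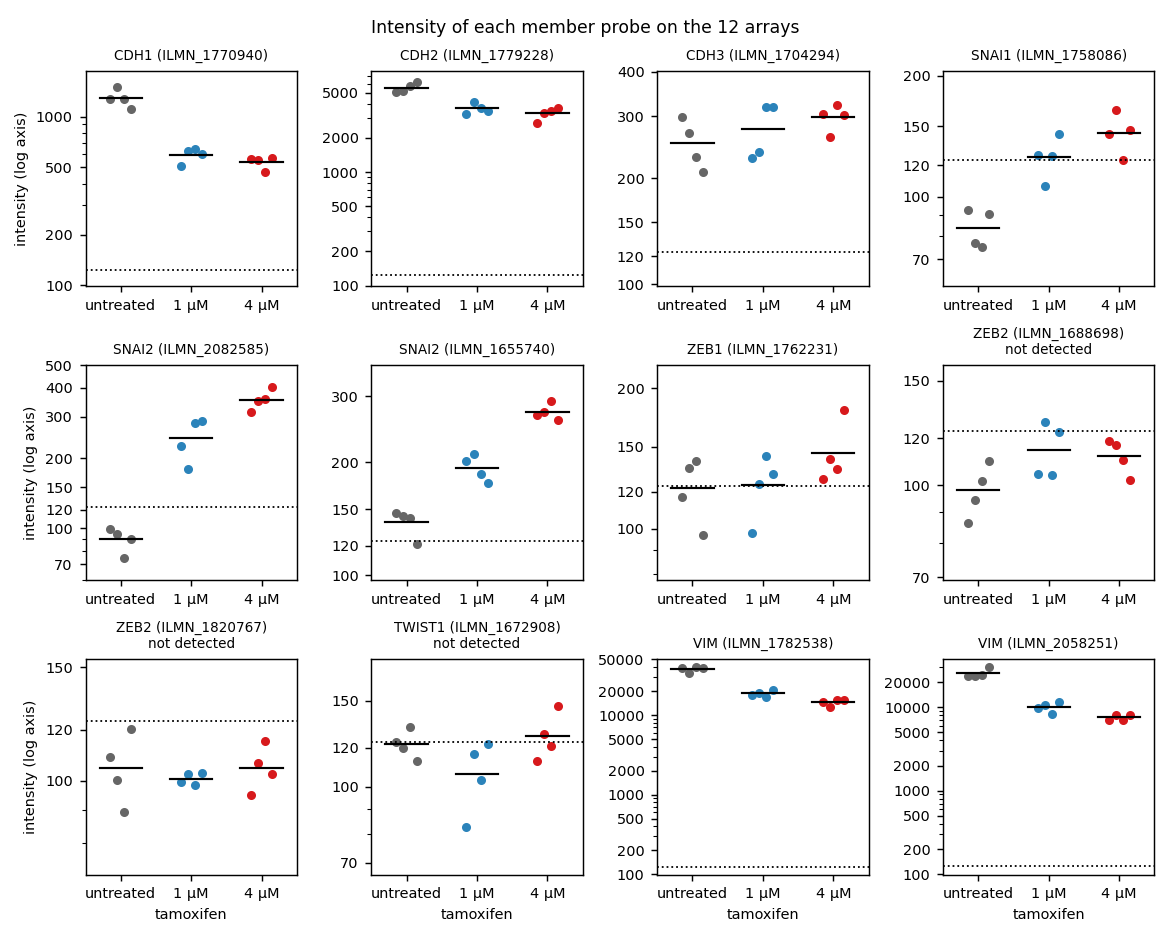
Intensity (log axis, with its own range in each panel) of the 12 probes on each array, by tamoxifen dose. Points are arrays, bars are means of 4 arrays and the dotted line is the background threshold of 123.6. CDH1, CDH2 and both VIM probes lie lower on every treated array than on any untreated array, and SNAI1 and both SNAI2 probes lie higher.

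CDH1 was lower in tamoxifen-treated cells at both doses. Its probe (ILMN_1770940) read 564.4, 552.4, 473.2 and 568.4 on the 4 µM arrays, against 1270.2, 1501.1, 1276.1 and 1105.1 on the untreated arrays. The 1 µM arrays read 510.8, 630.2, 640.9 and 603.2. All 8 treated arrays lay below all 4 untreated arrays, and the doses overlapped each other. CDH1 fell by 1.27 ± 0.12 on the log2 scale at 4 µM (± standard error, with 4 arrays in each group, adjusted p = 3.39e-11), a 2.41-fold fall. At 1 µM it fell by 1.13 ± 0.12 (adjusted p = 7.66e-10), or 2.18-fold. The difference between the doses, 4 µM minus 1 µM, was -0.15 ± 0.12 (adjusted p = 0.514) with a 95% confidence interval of -0.38 to 0.09. Among all tested probes, 1.9% had a fall as large as that of CDH1 at 4 µM. Every treated array was over 3 times the background threshold for CDH1. In RNA from whole cultures, fewer cells with CDH1 and less CDH1 RNA per cell cannot be told apart.

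CDH2, which encodes N-cadherin, was also lower in treated cells. Its probe (ILMN_1779228) read 2728, 3333, 3461 and 3691 at 4 µM, against 5049, 5153, 5725 and 6260.3 in untreated cells. At 1 µM it read 3278, 4134, 3675.5 and 3466. Every treated array lay below every untreated array. The fall was 0.75 ± 0.12 on the log2 scale at 4 µM (1.69-fold, adjusted p = 1.96e-06), and at 1 µM CDH2 fell by 0.61 ± 0.12 (1.53-fold, adjusted p = 6.09e-05). Between the doses the 95% confidence interval of 4 µM minus 1 µM ran from -0.38 to 0.09 (adjusted p = 0.527). CDH1 and CDH2 thus both fell, at both doses.

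CDH3, which encodes P-cadherin and is the protein-coding gene just before CDH1 on chromosome 16 in the RefSeq annotation (GRCh38.p14), did not pass the test. Its probe (ILMN_1704294) read 304.5, 261.6, 322.8 and 301.8 at 4 µM, against 298.0, 269.0, 230.0 and 208.5 in untreated cells. The 1 µM arrays split, with 228.5 and 238.0 on 2 of them and 319.2 and 317.9 on the other two. The groups overlapped in every comparison. The log2 difference from untreated cells was 0.27 ± 0.13 at 4 µM (95% confidence interval 0.0017 to 0.53, adjusted p = 0.105) and 0.14 ± 0.13 at 1 µM (adjusted p = 0.447). Without untreated replicate 1 the 4 µM value was 0.36 and passed (adjusted p = 0.0388).

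SNAI2 was higher at both doses on both of its probes, more so at 4 µM. SNAI2 encodes SLUG, a zinc finger repressor of CDH1. The first of its probes (ILMN_2082585) read 313.6, 352.5, 357.4 and 401.4 at 4 µM, against 99.5, 94.0, 74.7 and 90.2 in untreated cells, which are all below background. At 1 µM it read 225.5, 180.0, 281.4 and 286.8. The 3 groups did not overlap. A probe below background on every array of 1 group is set against the background threshold. By this bound, SNAI2 was at least 3.08-fold higher at 4 µM and at least 2.04-fold higher at 1 µM, and the bounds were not tested. The limma fit, which uses the untreated values below background, gave log2 differences of 2.16 ± 0.13 at 4 µM (adjusted p = 2.75e-15) and 1.57 ± 0.13 at 1 µM (adjusted p = 1.35e-11). This probe entered the fit through treated arrays only, so these p-values are descriptions. The second probe (ILMN_1655740) read 267.3, 272.5, 291.5 and 259.1 at 4 µM, against 146.6, 143.8, 142.1 and 121.2 in untreated cells, 3 of which are above background. Its 1 µM arrays read 201.4, 210.4, 186.6 and 175.8. By this probe SNAI2 rose by 1.05 ± 0.11 on the log2 scale at 4 µM (2.07-fold, adjusted p = 6.87e-10) and by 0.53 ± 0.11 at 1 µM (1.44-fold, adjusted p = 0.00018). The 4 µM arrays exceeded the 1 µM arrays on both probes, by 0.60 ± 0.13 (adjusted p = 0.00391) and 0.53 ± 0.11 (adjusted p = 0.00157). In the comparison of 4 µM with 1 µM, 4 of the 9 detected member probes were called and had arrays that did not overlap, where 8.51% of all tested probes were called and 12.8% did not overlap. They were the 2 of SNAI2, higher at 4 µM (4.15% of all tested probes called higher), and the 2 of VIM, lower at 4 µM (4.36% called lower).

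SNAI1, which encodes SNAIL, was higher in treated cells but close to background throughout. Its probe (ILMN_1758086) read 142.9, 164.8, 123.3 and 146.6 at 4 µM, against 92.9, 76.8, 75.0 and 90.8 in untreated cells. The 1 µM arrays read 127.0, 106.6, 126.2 and 143.6. At each dose 3 of 4 arrays passed the background threshold, some by a few units, while no untreated array did. All treated arrays lay above all untreated arrays. As a bound, SNAI1 was at least 1.18-fold higher at 4 µM and at least 1.01-fold higher at 1 µM, and the bounds were not tested. The limma fit, which uses the untreated values below background, gave log2 differences of 0.89 ± 0.12 at 4 µM (adjusted p = 2.72e-07) and 0.67 ± 0.12 at 1 µM (adjusted p = 3.59e-05). The probe entered the fit through treated arrays only, so these p-values are descriptions. The doses did not differ past the threshold (4 µM minus 1 µM 0.22 ± 0.12, 95% confidence interval -0.03 to 0.47, adjusted p = 0.31).

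ZEB1, a zinc finger and homeodomain repressor, did not pass the test at either dose. Its probe (ILMN_1762231) read 127.7, 141.0, 134.3 and 179.8 at 4 µM, against 117.0, 135.2, 139.8 and 96.8 in untreated cells. At 1 µM the readings were 97.8, 124.8, 143.5 and 130.9. The groups overlapped, and the probe was above background on 4, 3 and 2 arrays of the 4 µM, 1 µM and untreated groups. The log2 difference was 0.28 ± 0.14 at 4 µM (95% confidence interval 0.0018 to 0.56, adjusted p = 0.105) and 0.03 ± 0.14 at 1 µM (95% confidence interval -0.25 to 0.31, adjusted p = 0.902).

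ZEB2 and TWIST1 stayed at or near background. The ZEB2 probe ILMN_1688698 read 102.2 to 118.7 at 4 µM, 104.0 to 127.6 at 1 µM and 86.4 to 109.9 in untreated cells, above background on 1 array of the 12. The other ZEB2 probe, ILMN_1820767, was above background on no array, with 89.4 and 120.5 as its lowest and highest values. TWIST1, a helix-loop-helix factor that partners with E-proteins, read 112.8, 128.3, 120.9 and 145.9 at 4 µM, against 123.3, 120.2, 132.6 and 112.9 in untreated cells, and its 1 µM arrays read 82.7 to 122.3. It exceeded background on 3 arrays, 2 at 4 µM and 1 untreated. These probes were not tested, and a fall or a small rise in either gene was not detectable at this signal. No array read above 127.6 for ZEB2 or 145.9 for TWIST1, so no rise of the size seen for SNAI2 was read.

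VIM encodes vimentin, the intermediate filament protein of mesenchymal cells, and was lower at both doses on both of its probes. The brighter probe (ILMN_1782538) read 14660.1, 12779, 15690.5 and 15384 at 4 µM, against 38751, 34226, 40510.3 and 38751 in untreated cells (equal values arise at equal ranks under quantile normalization). Its 1 µM arrays read 18014, 19103, 17104.5 and 20665. VIM fell by 1.38 ± 0.11 on the log2 scale at 4 µM (2.61-fold, adjusted p = 1.1e-12) and at 1 µM it fell by 1.02 ± 0.11 (2.03-fold, adjusted p = 1.73e-09). The second probe (ILMN_2058251) read 7044, 8031, 6995 and 8016 at 4 µM, against 23721, 23664, 24592 and 30153 in untreated cells. It read 9736, 10659, 8332 and 11675 at 1 µM. On this probe the fall was larger, 3.39-fold at 4 µM (-1.76 ± 0.12, adjusted p = 1.54e-14) and 2.54-fold at 1 µM (-1.34 ± 0.12, adjusted p = 1.98e-11). The files carry no saturation mark for such bright probes. On both probes the 4 µM arrays lay below all 1 µM arrays, by a log2 difference of -0.36 ± 0.11 (adjusted p = 0.0352) and -0.42 ± 0.12 (adjusted p = 0.0205). This difference between doses lost its call on at least 1 probe with a smaller background offset, with no detection filter or without any 1 of 4 µM replicates 1, 2, 3 or 4 or 1 µM replicates 2 or 4 (adjusted p up to 0.149).

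**Figure D2:**
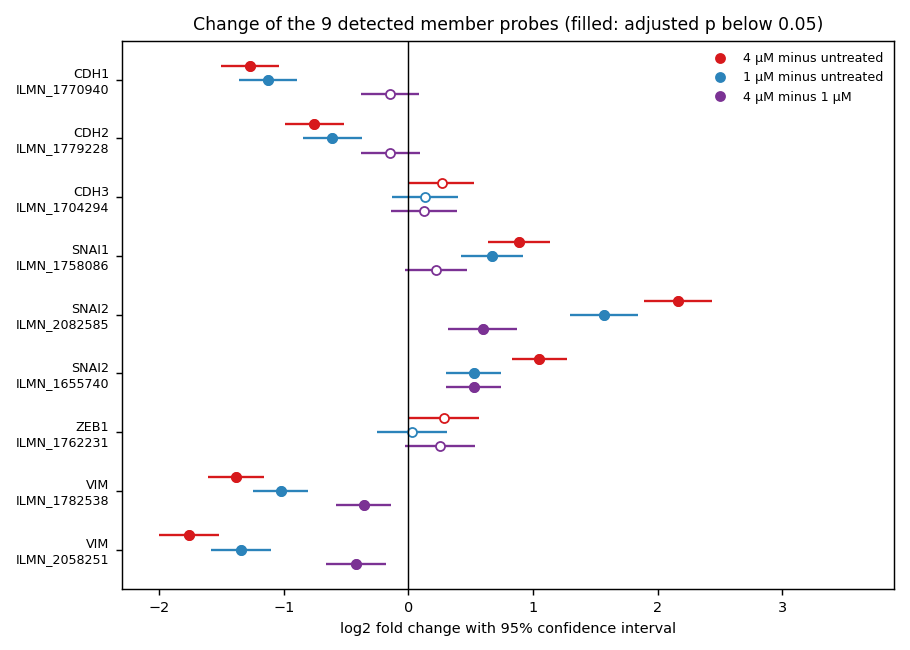
Log2 fold change with its 95% confidence interval (horizontal axis) for the 9 detected member probes, for 4 µM against untreated, 1 µM against untreated and 4 µM against 1 µM. Filled points have an adjusted p below 0.05: CDH1, CDH2 and VIM lie left of 0 at both doses, SNAI1 and SNAI2 lie right of 0, and the intervals of the dose difference exclude 0 for SNAI2 and VIM.

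Promoter sequences in the RefSeq table (GRCh38.p14) matched 4 of the 9 genes, CDH2, VIM, ZEB1 and ZEB2, with 11 windows. CDH2 and VIM are shown because their transcripts fell together with CDH1. The third ZEB1 window is shown because it holds, in both orientations, the E-box that SNAI, ZEB and E47 proteins are known to bind (CACCTG, or CAGGTG on the other strand). That window was chosen after its matches were seen. Each line gives the 250 bases before an annotated start, 5′ to 3′ on the gene's strand, with any CANNTG in capitals, read on 1 strand since the motif is its own reverse complement. The windows are VIM at chr10:17227991-17228240 (+ strand), CDH2 start 1 at chr18:28177131-28177380 (- strand), CDH2 start 2 at chr18:28036642-28036891 (- strand) and ZEB1 start 3 at chr10:31318966-31319215 (+ strand).
VIM: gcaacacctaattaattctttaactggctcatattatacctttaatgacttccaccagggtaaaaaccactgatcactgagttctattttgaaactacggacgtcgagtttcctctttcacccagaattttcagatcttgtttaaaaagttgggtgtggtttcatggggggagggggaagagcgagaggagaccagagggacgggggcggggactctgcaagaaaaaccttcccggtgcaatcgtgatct
CDH2 start 1: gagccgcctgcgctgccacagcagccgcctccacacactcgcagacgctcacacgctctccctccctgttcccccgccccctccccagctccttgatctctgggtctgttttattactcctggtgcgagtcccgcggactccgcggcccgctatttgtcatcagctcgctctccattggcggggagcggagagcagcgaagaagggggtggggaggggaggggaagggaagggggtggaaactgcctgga
CDH2 start 2: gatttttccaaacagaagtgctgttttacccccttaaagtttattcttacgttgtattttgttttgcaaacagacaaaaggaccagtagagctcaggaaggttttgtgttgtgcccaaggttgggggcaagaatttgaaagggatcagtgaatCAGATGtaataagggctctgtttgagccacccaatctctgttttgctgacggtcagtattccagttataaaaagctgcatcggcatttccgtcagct
ZEB1 start 3: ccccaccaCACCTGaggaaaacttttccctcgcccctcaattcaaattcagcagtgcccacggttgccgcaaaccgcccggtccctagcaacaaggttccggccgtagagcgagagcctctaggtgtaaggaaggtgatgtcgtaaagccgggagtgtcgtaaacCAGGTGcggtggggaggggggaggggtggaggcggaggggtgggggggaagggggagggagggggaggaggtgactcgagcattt

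The VIM window and the first CDH2 window hold no CANNTG. The second CDH2 window holds 1, CAGATG, whose first base lies 97 bases before the start. The ZEB1 window holds CACCTG 242 bases and CAGGTG 85 bases before its start. It holds the most matches to this E-box, in either orientation, among 7 ZEB1 windows, of which 3 hold no CANNTG. Of all 11 windows of the members, 6 hold a CANNTG (54.5%) and 2 hold CACCTG or CAGGTG (18.2%), both of them of ZEB1. Of 35116 RefSeq windows of the same length, 61.8% hold at least 1 CANNTG and 17.5% hold CACCTG or CAGGTG, which are a subset of it. These are descriptions of the letters, and binding was not measured.

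Other genes of the cadherin system were taken from lists, each gene by its brightest detected probe. Each list count below is a description and stands beside the share of all tested probes called, which also takes in dim probes and several probes of a gene. At 4 µM against untreated cells, the median log2 fold change of all tested probes was -0.03. Of 22 detected partners of cadherins at the adherens junction, 9 rose (40.9%, beside 19.8% of all tested probes), 4 fell (18.2%, beside 20.4%) and 9 did not pass (median 0.13). Plakoglobin (JUP), a catenin of junctions and desmosomes, rose by 2.33 ± 0.13, the adhesion receptor gene NECTIN2 rose by 1.00 ± 0.12 and the receptor phosphatase gene PTPRF rose by 0.88 ± 0.11. The other detected probes stood at 1.22 and 1.636 for JUP, at 0.97 and 0.20 for NECTIN2 (the lower did not pass) and at 0.74 for PTPRF. CTNNAL1, an alpha-catenin relative, fell by 1.50 ± 0.11, and the actin cross-linkers ACTN1 and ACTN4 fell as well (-1.10 ± 0.12 and -0.85 ± 0.13). The core catenins stood at 0.12 (alpha-catenin, CTNNA1), 0.12 (beta-catenin, CTNNB1) and 0.14 (p120, CTNND1), none of which passed, nor did the second detected probe of each. At 1 µM 9 of the 22 rose, beside 18.2% of all tested probes, and 4 fell, beside 19.8%. The 4 falls were 2 without 1 µM replicate 3 and 2 with an offset of 16. CTNNA1 was among the rises at 1 µM (0.38), and its other probe (0.27) did not pass. Of other cadherins, 4 of 17 with a probe were detected and 1 of the 4 rose at 4 µM, beside 19.8% of all tested probes. This was CDH15, the muscle cadherin (0.47 ± 0.11), while the other three did not pass.

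Of 16 detected epithelial genes known as targets of SNAI or ZEB proteins, 8 rose at 4 µM (beside 19.8% of all tested probes), 5 fell (31.2%, beside 20.4%) and 3 did not pass (median 0.28), and CDH3 is 1 of the 16. In 1 of the rises (ST14) and 1 of the falls (PKP3) a group lay below background throughout. CDS1, an enzyme of phospholipid synthesis, fell by 2.23 ± 0.11. The polarity gene LLGL2 fell by 1.11 ± 0.12 on its brighter probe, above background on 2 of 4 arrays at 4 µM, while its other detected probe stood at -0.14. The plakophilin gene PKP3 was at least 1.66-fold lower on its brighter probe, whereas its second detected probe stood at 0.11. In the other direction, the claudin genes CLDN3 and CLDN4 rose by 1.67 ± 0.13 and 1.41 ± 0.12, and the membrane protease gene ST14 was at least 2.57-fold higher. Of other claudin genes, CLDN1 stood at 0.31 and was called higher, and CLDN7 stood at -0.58 and was called lower. EPCAM, an epithelial adhesion molecule, rose by 0.30 ± 0.11 on its brightest probe, while its other detected probes stood at 0.19 and 0.01 and did not pass. At 1 µM, 8 of the 16 rose, beside 18.2% of all tested probes, and 3 fell, beside 19.8%. The 8 rises at 4 µM were 5 without 4 µM replicate 3 and 5 without untreated replicate 3.

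Of 14 detected factors that sustain the epithelial program, 5 rose at 4 µM (35.7%, beside 19.8% of all tested probes) and 5 fell (35.7%, beside 20.4%), with a median of -0.02. In 1 of the rises (GRHL3) and 1 of the falls (SPDEF) a group lay below background throughout. CEBPA, a differentiation factor, rose by 3.33 ± 0.11, and the epithelial ETS factor ELF3 rose by 2.29 ± 0.11. The grainyhead factor GRHL3 was at least 4.74-fold higher on its brightest probe, and its other detected probes showed smaller log2 fold changes of 1.03 and 1.32, both called. TFAP2A (AP-2 alpha) fell by 1.77 ± 0.11 (its 3 other detected probes stood at -1.63 to -0.89, all called), SPDEF was at least 1.37-fold lower, and RUNX1 fell by 0.50 ± 0.13. FOXA1 and FOXA2, forkhead factors of endoderm, fell at 4 µM (-0.50 ± 0.11 and -0.43 ± 0.12) and did not pass at 1 µM (-0.05 and 0.20). Their differences of 4 µM from 1 µM were -0.44 and -0.63, both past the threshold. The second detected probe of FOXA2 stood at -0.15 at 4 µM and 0.10 at 1 µM, a difference of -0.25, and passed in none of these comparisons.

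The next list mixes further repressors and EMT factors with ID genes, so its counts are not counts of repressors. Of its 14 detected genes, 5 rose at 4 µM (35.7%, beside 19.8% of all tested probes), 6 fell (42.9%, beside 20.4%) and 3 did not pass (median -0.02). The rises were those of ID2 (3.63 ± 0.11), ID3 (3.37 ± 0.11) and ID1 (1.54 ± 0.12), whose proteins hold E-proteins off DNA, and of the mesenchymal homeobox gene PRRX1 (1.11 ± 0.14) and the Wnt effector gene LEF1 (0.96 ± 0.11). The largest falls were those of TCF3 (-1.44 ± 0.12), of SMAD3 (-1.15 ± 0.11), a TGF-beta effector, and of HMGA2 (-0.83 ± 0.13), a chromatin protein whose other detected probe stood at 0.03. TWIST2 (-0.81), FOXC2 (-0.62) and TBX3 (-0.31) were called lower as well, with the other detected FOXC2 probe at 0.02. At 1 µM TWIST2 stood at -0.77 and was called lower. TCF12, another E-protein gene, stood at 0.22 ± 0.12 and did not pass. Of the corepressors and histone or DNA enzymes that SNAI1 or ZEB1 can recruit, 2 of 16 rose (12.5%, beside 19.8% of all tested probes) and 7 fell (43.8%, beside 20.4%), with a median of -0.23. DNMT1, the maintenance DNA methyltransferase, fell by 1.33 ± 0.10, and the histone demethylase gene KDM1A (-0.71 ± 0.11) and SIN3A (-0.62 ± 0.13) fell too. AJUBA, a LIM protein also counted among the junction partners, rose by 0.70 ± 0.11 (its other detected probe, at 0.19, did not pass), and SETDB1 rose by 0.29 ± 0.12. The count of 2 rises was 1 without any 1 of 4 µM replicates 1 or 3, 1 µM replicate 1 or untreated replicates 1 or 4, with an offset of 16, with no detection filter and with only the 2 groups fitted. This count was 3 with no background correction and with the stricter detection filter, which tests 15 in place of 16.

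**Figure D3:**
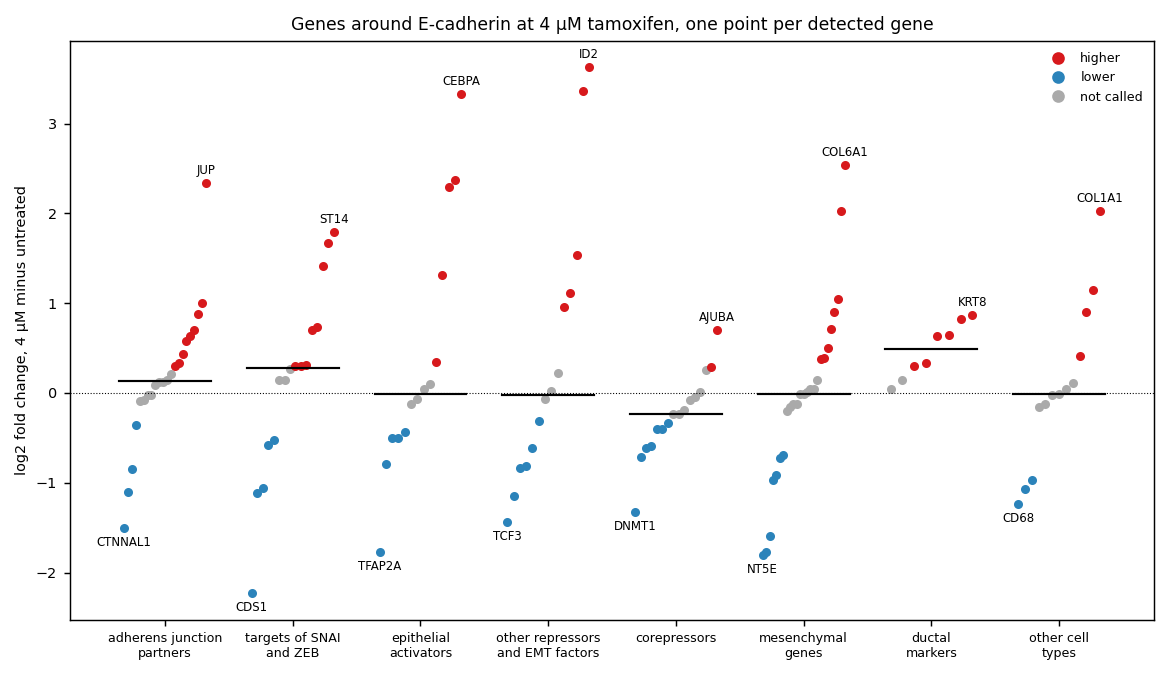
Log2 fold change of 4 µM against untreated cells (vertical axis) for the detected genes of 8 lists, with 1 point per gene, coloured by call, and a bar at each list's median. The junction, target, activator, repressor, corepressor, mesenchymal and other cell type lists hold genes called in both directions, with JUP at 2.33 and CDS1 at -2.23 among the ends. The repressor list includes the ID genes.

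Of 25 detected genes that commonly rise along with CDH2 and VIM in epithelial to mesenchymal transition, 8 rose at 4 µM (beside 19.8% of all tested probes) and 7 fell (beside 20.4%), with a median of -0.01. In 3 of the rises and 1 of the falls a group lay below background throughout. The collagen genes COL6A1 and COL1A1 rose by 2.54 ± 0.13 and 2.02 ± 0.12, and the lysyl oxidase gene LOX was at least 1.34-fold higher. The surface enzyme gene NT5E fell by 1.81 ± 0.12, and CD44, a hyaluronan receptor (-1.77 ± 0.11), and the receptor kinase gene AXL (-1.59 ± 0.14) fell too. The other detected probes stood at -2.19 and -0.39 for CD44 and at -1.34 for AXL, all called. Fibronectin (FN1) stood at 0.01 ± 0.11, above background on 2 arrays of each of the 4 µM and untreated groups. Some of these genes also mark fibroblasts, and of all 26 markers of other cell types with a probe, 13 were detected, of which 4 rose (COL1A1, COL3A1, LUM and TEK, beside 19.8% of all tested probes) and 3 fell (CD68, CD14 and THY1, beside 20.4%). COL3A1, LUM and TEK lay below background on all untreated arrays. The summed intensity of 11 fibroblast markers was 1884.1 to 1961.1 at 4 µM, 1670.5 to 1789.6 at 1 µM and 1449.2 to 1552.9 in untreated cells, with PDGFRA, PDGFRB and POSTN above background on no array. That of 8 leukocyte markers was 2415.4 to 2738.4 at 4 µM, 2294.3 to 2950.1 at 1 µM and 4932.3 to 5194.8 in untreated cells, with PTPRC, CD3E, CD3D and NKG7 above background on none. That of 7 endothelial markers, of which 2 were detected, was 689.8 to 739.9 at 4 µM, 674.0 to 731.5 at 1 µM and 684.0 to 742.2 in untreated cells, with CDH5, VWF, KDR and CLDN5 above background on none. Background was not subtracted from these sums. A probe without signal reads about 99.4, so background makes up most of the endothelial sum and much of the fibroblast sum. The part of other cell types in the values of VIM and the collagen genes was not tested. Of 8 detected ductal markers, each by its brightest detected probe, 6 rose at 4 µM, beside 19.8% of all tested probes, and 5 at 1 µM, beside 18.2%. By these probes 0 fell at either dose by limma, also 0 at an unadjusted p below 0.05. The 6 were 4 without 4 µM replicate 4, untreated replicate 2 or untreated replicate 3. The called values at 4 µM lay between 0.30 (EPCAM) and 0.87 (KRT8). The 2 probes of KRT18 disagreed at 4 µM. The counted probe rose by 0.65, and the other was called lower (-0.29, adjusted p = 0.028 by limma).

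By the root mean square difference between log2 values over the 12 arrays, each gene centred on its own mean, the 5 genes nearest to CDH1 among 12950 were GINS4, TMEM97, RAD54B, PIF1 and BCAR3, at 0.11 to 0.15. GINS4 encodes a subunit of the replicative helicase complex, TMEM97 the sigma-2 receptor, RAD54B and PIF1 DNA helicases or translocases and BCAR3 a signalling adaptor. Their log2 fold changes at 4 µM were -1.31 to -1.23, beside -1.27 for CDH1, a closeness that follows from the way they were chosen. Among the members, VIM (its brighter probe) stood at rank 165 with a difference of 0.21, CDH2 at rank 805 with 0.32 and SNAI2 at rank 12758 with 1.50 (ZEB1, CDH3 and SNAI1 lay between them). The arrays fall into treated and untreated sets, so these ranks mainly describe that contrast.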

How the data were processed

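RNA of PANC-1 cells was measured on Illumina bead arrays, with groups and replicate numbers from the sample titles. The deposited values are linear intensities that the authors had quantile-normalized between arrays, as the matching distributions of the 12 columns show. GenomeStudio is named per the submitters' processing notes, without its settings. A further file has 24 columns that carry names matching none of the samples' labels, and they were left out. No 2 arrays held identical values.

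Of 47323 probes, 30113 had 1 annotated gene, 8 several and 17202 none, and 30074 were matched by gene ID to RefSeq (GRCh38.p14). Background was set at the mode of the intensities (99.4) plus 1.645 standard deviations of its lower side (14.7). Values were corrected with normexp (offset 50), taken to log2 and fitted with limma 3.58.1 in R 4.3.3 over all 12 arrays, with each detected probe as a feature (9 residual and 23.5 prior degrees of freedom, two-sided). Folds for probes below background throughout 1 group are lower limits, computed at the threshold, and the p-values of such probes belong to the fitted differences. The fit was run on simulated data with 200 changed features and independent noise. Far more probes were called in the real data, so the simulation does not show how the fit performs on them.

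The members, lists and alternatives were chosen with earlier results of these data known. Named were all members, per list up to 3 called rises and falls at 4 µM, called markers of other cell types and the 5 genes nearest to CDH1. The core catenins, FOXA1, FOXA2, TCF12, PRRX1, LEF1, FN1, EPCAM and called markers beyond the first 4 were named after their values were seen. So were TWIST2, FOXC2, TBX3, CLDN1 and CLDN7. Alternatives changed the background correction, filter, probes per gene, scaling, arrays fitted and replicate block, and left out each array in turn. The number of arrays limits the precision.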

Additional observations from a re-analysis of the deposited data

Results flagged for a closer look

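In 3 of 36 combinations of probe and group, 1 array stood apart from the rest of its group by Dixon's test. Chance alone flags about 1 in 20, and whether 3 of 36 exceeds that was not tested. CDH1 was low on 4 µM replicate 3 (473.2, with the others at 552.4 to 568.4), which lies on the side away from the untreated arrays. The SNAI2 probe ILMN_1655740 was low on untreated replicate 4 (121.2, with the others at 142.1 to 146.6), and this was the 1 untreated array below background for it. The VIM probe ILMN_2058251 was high on untreated replicate 4 (30153, with the others at 23664 to 24592). Without these arrays in turn, the calls of the 3 probes against untreated cells held at both doses.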

How the results depend on the processing

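Across 20 alternatives and left-out arrays, the values of single member probes kept their direction and their side of the threshold in 512 cases, lost the call in 12 and gained it in 1, and changed sign in 3. The sign changes were those of ZEB1 at 1 µM, which was -0.05 without 1 µM replicate 3, -0.0053 without 1 µM replicate 4 and -0.092 without untreated replicate 4, none past the threshold, in a range of -0.092 to 0.15 over the left-out arrays. All 12 lost calls were VIM at 4 µM against 1 µM. CDH1 ranged from -1.34 to -1.19 at 4 µM and from -1.20 to -1.05 at 1 µM, and the detected probes of CDH2, SNAI1, SNAI2 and VIM kept their calls against untreated cells in all alternatives in which they were tested. Between the doses, 2 member probes were called in place of 4 with an offset of 16, with 1 probe per gene (which tests 7 in place of 9) and without 4 µM replicate 1, 1 µM replicate 2 or 1 µM replicate 4 (range 2 to 4 over the left-out arrays). The count over all probes between the doses was 1346 to 2261 over the left-out arrays, against 2068, with 1371 without 4 µM replicate 3 and 1346 without 1 µM replicate 4. The labels do not say what a replicate number marks, so the numbers were not taken as pairs. Residual correlations were over 0.1 in 3 of 12 same-number pairs of arrays (range -0.07 to 0.14) and in 3 of 36 other pairs (-0.20 to 0.15). The share was thus larger among same-number pairs, and a shared batch was not tested further. With the replicate block, 9852 probes were called at 4 µM, 9341 at 1 µM and 2166 between the doses, beside 9760, 9230 and 2068 without it, and no member's call changed. SNAI1, ZEB1, ZEB2 and TWIST1 lay near background, which limits what their probes can show.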
